A study of Homo sapiens with 12 samples.

Results

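SERPINA3 and CHI3L2 were each read by a single probe set, 202376_at for SERPINA3 and 213060_s_at for CHI3L2, so that they made up 2 of 8545 genes and 2 of the 16376 probe sets. They were found by their gene annotation, and no probe set annotated to several genes held either. The pair was selected on its measured differences between the PARK2 siRNAs and scramble in SNB19, so its values in SNB19, and the comparison of the lines with scramble, are given as descriptions without a test, while its values in SF539 were tested. Each of 6 groups had 2 of the 12 Affymetrix arrays. They were SNB19 with PARK2 siRNA1, SNB19 with PARK2 siRNA2, SNB19 with scramble siRNA, SF539 with PARK2 siRNA1, SF539 with PARK2 siRNA2 and SF539 with scramble siRNA. SNB19 and SF539 are established glioma cell lines, labelled as GBM (glioblastoma), and all groups, scramble included, were transfected with an siRNA by Lipofectamine RNAiMAX and harvested 48 h later. PARK2 encodes parkin, an enzyme that tags damaged mitochondria with ubiquitin. Its own level was not analysed here, and the arrays include no untransfected cells, so a rise with the PARK2 siRNAs and a fall with scramble cannot be told apart.

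SERPINA3 encodes alpha-1-antichymotrypsin, a secreted serpin that traps serine proteases such as cathepsin G and chymase by offering them a bait loop. It is an acute-phase protein of the liver, is induced in astrocytes by cytokines of the interleukin-6 and interleukin-1 families through STAT3 and NF-kB, and is a common marker of reactive astrocytes. CHI3L2, also called YKL-39, is a secreted member of the chitinase family that has lost the catalytic residues, and it was first described in cartilage. Its close relative CHI3L1, or YKL-40, is a marker of reactive astrocytes and of mesenchymal glioblastoma.

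Both transcripts were higher with the PARK2 siRNAs than with scramble in SNB19. The 250 bases before each gene's annotated start in RefSeq (GRCh38.p14, plus strand for both genes) are therefore shown. They span chr14:94612141-94612390 for SERPINA3 and chr1:111227409-111227658 for CHI3L2, for which RefSeq lists 2 windows and the first is printed. Capitals mark, from left to right, the matches to the C/EBP, STAT and NF-kB motifs.
SERPINA3: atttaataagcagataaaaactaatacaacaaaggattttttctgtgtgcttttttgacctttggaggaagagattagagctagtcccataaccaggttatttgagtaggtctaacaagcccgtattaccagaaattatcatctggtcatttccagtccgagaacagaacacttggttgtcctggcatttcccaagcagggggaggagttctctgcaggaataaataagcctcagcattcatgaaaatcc
CHI3L2: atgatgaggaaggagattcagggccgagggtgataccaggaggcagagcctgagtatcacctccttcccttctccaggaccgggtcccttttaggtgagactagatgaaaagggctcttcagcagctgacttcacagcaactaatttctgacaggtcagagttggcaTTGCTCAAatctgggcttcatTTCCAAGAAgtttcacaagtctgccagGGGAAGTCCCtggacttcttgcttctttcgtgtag
The motifs searched on both strands were STAT (TTCNNNGAA), C/EBP (TTGCNNAA), AP-1 (TGANTCA), the interferon-stimulated response element (GAAA, any 2 bases, GAAA), the TATA box (TATAAA) and NF-kB. None of the 6 had a match in the SERPINA3 window, of which 40% was G or C. The CHI3L2 window, 50.4% G or C, had a C/EBP match 83 to 76 bases before the start, a STAT match 62 to 54 bases before it and an NF-kB match 35 to 26 bases before it. Of 34943 promoter windows of the same length, 9.06% held the C/EBP letters, 6.56% the STAT letters and 9.95% the NF-kB letters. A match is a run of letters and not evidence of binding. Only exact matches were searched, so the lack of one is not evidence that binding is absent. The second CHI3L2 window was not searched.

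In SNB19, SERPINA3 was among the genes that stood highest over scramble. Its log2 values were 10.11 and 10.03 with siRNA1 and 9.95 and 9.63 with siRNA2, against 5.85 and 6.10 with scramble. All 4 arrays with a PARK2 siRNA were far above both scramble arrays. On the siRNA1 arrays 88.6% and 88.3% of all probe sets lay below SERPINA3, on the siRNA2 arrays 87.5% and 85%, and on the scramble arrays 47.3% and 49.9%. The transcript therefore stood near the middle of the array with scramble and in its upper part with either siRNA. The mean of both siRNAs exceeded scramble by 3.95 ± 0.13 log2 units (SE), which is 15.5-fold and the second highest difference among 8545 genes. With siRNA1 alone the difference was 4.09 ± 0.15, and with siRNA2 alone it was 3.81 ± 0.15, the highest of all genes for that siRNA. In bulk RNA, more cells making a transcript and more transcript per cell cannot be told apart.

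**Figure D1:**
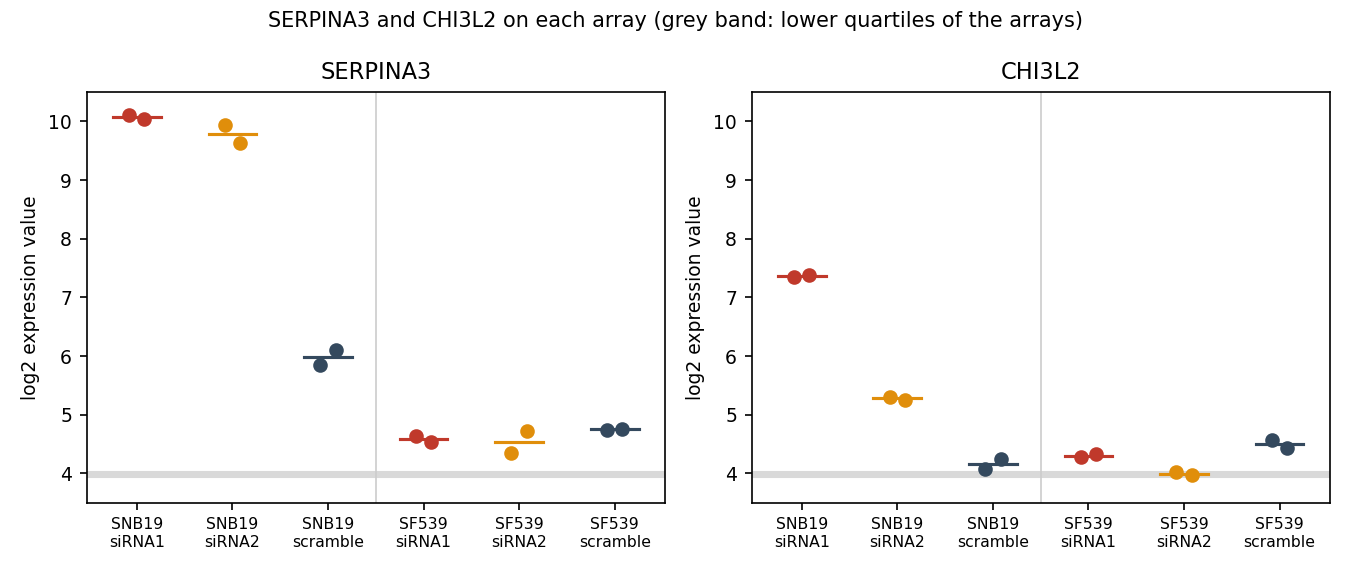
Log2 expression values of SERPINA3 (left panel) and CHI3L2 (right panel) on each of the 12 arrays, by line and siRNA. Points are arrays, short lines are group means and the grey band spans the lower quartiles of the arrays, 3.93 to 4.02. In SNB19 the siRNA arrays lie above scramble for both genes, while in SF539 all values lie between 3.98 and 4.76.

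CHI3L2 was higher with both siRNAs in SNB19 as well, but the siRNAs differed. Its log2 values were 7.36 and 7.39 with siRNA1 and 5.31 and 5.25 with siRNA2, against 4.07 and 4.25 with scramble. The 3 groups did not overlap, and siRNA2 lay between siRNA1 and scramble. The scramble values were only 0.10 and 0.23 above the lower quartile of their arrays, so background bounds the level there and a difference from it may be understated. The mean of both siRNAs exceeded scramble by 2.16 ± 0.08 (SE, 4.47-fold, place 16 of 8545 genes). The difference was 3.21 ± 0.09 for siRNA1, 9.23-fold and place 4, and 1.12 ± 0.09 for siRNA2, 2.17-fold and place 136. The call rule used throughout was a limma adjusted p under 0.05, and by it 32.8% of all genes differed between the mean of both siRNAs and scramble in SNB19, 15.5% higher and 17.4% lower. Both genes belonged to that 15.5%, which the way they were chosen had fixed.

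Set against each other in SNB19, the siRNAs were farther apart at CHI3L2 than at SERPINA3. CHI3L2 averaged 5.28 ± 0.04 with siRNA2 and 7.37 ± 0.02 with siRNA1 (SD, n = 2 each), a difference of -2.09 ± 0.09 (SE), which was the 4th lowest of all genes. SERPINA3 averaged 9.79 ± 0.23 with siRNA2 and 10.07 ± 0.05 with siRNA1 (SD, n = 2 each), a difference of -0.28 ± 0.15 (SE). That difference was -0.44 without siRNA2 replicate 1 and -0.12 without siRNA2 replicate 2. For the siRNAs against each other 6.06% of all genes were called.

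**Figure D2:**
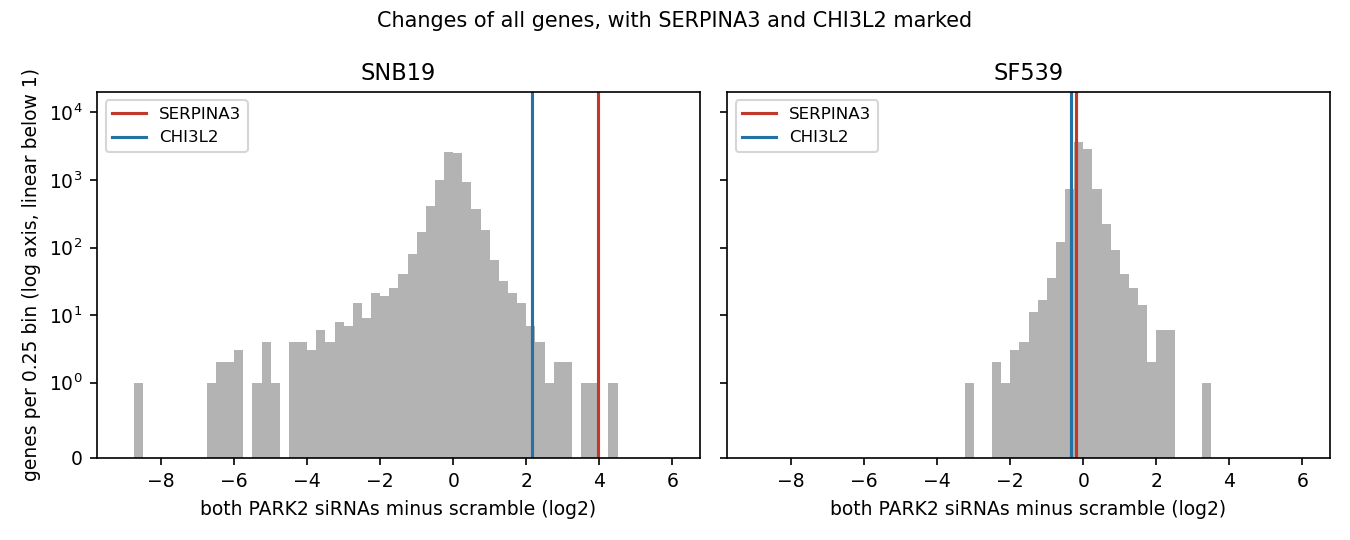
Number of genes, on an axis that is logarithmic above 1, by their difference between both PARK2 siRNAs and scramble in bins of 0.25 log2 units, in SNB19 (left) and SF539 (right). Vertical lines mark SERPINA3, at 3.95 in SNB19 and -0.19 in SF539, and CHI3L2, at 2.16 in SNB19 and -0.35 in SF539. The lines lie far out in the right tail in SNB19 and within the bulk of genes in SF539.

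In SF539 cells SERPINA3 did not pass the test. Its log2 values were 4.64 and 4.53 with siRNA1 and 4.35 and 4.72 with siRNA2, against 4.74 and 4.76 with scramble. The scramble arrays lay above all 4 siRNA arrays, by as little as 0.02. All of these values lay only 0.41 to 0.78 above the lower quartile of their arrays, so background bounds a fall. The mean of both siRNAs differed from scramble by -0.19 ± 0.13 (SE, limma adjusted p = 0.402), with a 95% interval of -0.48 to 0.10. The siRNAs taken singly differed from scramble by -0.16 (limma adjusted p = 0.65) for siRNA1 and -0.22 (limma adjusted p = 0.355) for siRNA2, and from each other, siRNA2 minus siRNA1, by -0.05 with an interval of -0.38 to 0.28 (limma adjusted p = 0.858). These values moved with the siRNA2 arrays. Without siRNA2 replicate 1 the mean differed by -0.10 (limma adjusted p = 0.6) and siRNA2 alone by -0.03 (limma adjusted p = 0.908). Without siRNA2 replicate 2 the mean differed by -0.28 (limma adjusted p = 0.128) and siRNA2 alone by -0.41 (limma adjusted p = 0.108).

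CHI3L2 was slightly lower with the PARK2 siRNAs in SF539. Its log2 values were 4.27 and 4.33 with siRNA1 and 4.02 and 3.98 with siRNA2, against 4.56 and 4.44 with scramble. The 3 groups did not overlap, and the order of the siRNAs was again siRNA1 above siRNA2, but here both lay below scramble. The mean of both siRNAs differed from scramble by -0.35 ± 0.08 (SE, limma adjusted p = 0.0217). siRNA2 alone differed by -0.50 ± 0.09 (limma adjusted p = 0.00598), siRNA1 alone by -0.20 ± 0.09 (limma adjusted p = 0.31), and siRNA2 from siRNA1 by -0.31 ± 0.09 (limma adjusted p = 0.0921). Of all genes 4.01% were called lower for the mean of both siRNAs and 6.5% for siRNA2, 2.73% were called in either direction for siRNA1 and 2.72% between the siRNAs. The call for the mean rests on single arrays, since without SF539 scramble replicate 1 the difference was -0.29 (limma adjusted p = 0.159), and it was also lost without siRNA1 replicate 1 (limma adjusted p = 0.068) or replicate 2 (limma adjusted p = 0.0541). The siRNA2 call was lost with array weights (limma adjusted p = 0.0866) and on the SF539 arrays alone (limma adjusted p = 0.061). On the siRNA2 arrays CHI3L2 was 0.08 and 0.01 above the lower quartile, so background bounds the fall.

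With scramble siRNA the lines differed in their values of both genes, by little for CHI3L2. SERPINA3 averaged 4.75 ± 0.02 in SF539 and 5.98 ± 0.17 in SNB19 (SD, n = 2 each), and CHI3L2 averaged 4.50 ± 0.09 in SF539 and 4.16 ± 0.13 in SNB19. The differences, SF539 minus SNB19, were -1.23 ± 0.15 for SERPINA3 and 0.34 ± 0.09 for CHI3L2 (SE). On the scramble arrays CHI3L2 lay 0.10 and 0.23 above the array's lower quartile in SNB19, and 0.54 and 0.45 above it in SF539. SERPINA3 lay 0.71 and 0.78 above that quartile on the SF539 scramble arrays. Background thus bounds these levels, and the order of the groups near it is uncertain. The difference between the lines in the response to the PARK2 siRNAs, SF539 minus SNB19, was -4.14 for SERPINA3 and -2.51 for CHI3L2. Over all 6 groups SERPINA3 ran from SNB19 siRNA1 and siRNA2 down to SNB19 scramble, then SF539 scramble, siRNA1 and siRNA2, and the last 2 overlapped. CHI3L2 ran from SNB19 siRNA1 and siRNA2 to SF539 scramble, SF539 siRNA1, SNB19 scramble and SF539 siRNA2. Neighbours among its lowest groups were 0.02 to 0.10 apart at their nearest arrays.

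The array medians ran from 5.94 to 6.14. The highest were those of SNB19 scramble, at 6.142 and 6.105, against 5.976 to 6.036 on the SNB19 siRNA arrays. With each array centred on its median, 68.3% of the SNB19 calls were higher, against 47.1% as deposited. Replicate arrays correlated at 0.991 to 0.998 over probe sets, lowest for SF539 siRNA2, whose median SD between replicates was 0.132 against 0.0616 to 0.0852 in the other groups. VIM and CD44, markers of glioma cells, were above the array median on all 12 arrays, whereas GFAP, S100B, SOX2 and FABP7 were above it on the 6 SNB19 arrays alone, so these glial markers were below the array median on every SF539 array. None of 6 measured leukocyte markers was above the median on any array, and limma called none of them in either line. Of 18 measured markers of endothelium, hepatocytes, chondrocytes and epithelium 4 were called higher and 1 lower in SNB19, and most were not called. Of all genes 15.5% were called higher there and 17.4% lower. The higher markers were the keratin KRT19, by 1.26 (limma adjusted p = 6.93e-05), and the liver gene AMBP, by 0.63 (limma adjusted p = 0.00122). Higher too were the endothelial gene VWF, by 0.52 (limma adjusted p = 0.00208), and the cartilage collagen COL2A1, by 0.47 (limma adjusted p = 0.0141). None of these 4 was above the array median on any array, and the keratin KRT18 was called lower. Averaged over the markers of a type, the SNB19 arrays with a PARK2 siRNA lay at 4.33 to 4.41 against 4.19 to 4.24 with scramble for hepatocytes. For chondrocytes they lay at 3.72 to 3.85 against 3.54 to 3.62. For endothelium they lay at 4.27 to 4.37 against 4.05 to 4.13, and for epithelium at 4.90 to 5.14 against 4.82 to 4.90. Glioma markers averaged 11 to 11.1 against 9.98 to 10.1, but they did not move alike. GFAP, FABP7 and S100B were called higher, by 3.58, 1.33 and 1.00. SOX2 was called lower, by -0.41 (limma adjusted p = 0.0457), and VIM and CD44 were not called. Leukocyte markers, at 4.03 to 4.12 against 4.07 to 4.16, did not rise. The chondrocyte averages lay below the lower quartiles of the arrays, 3.93 to 4.02, and those of hepatocytes and endothelium little above them, so background bounds these shifts. AMBP was the only hepatocyte marker called. In SF539 the cartilage gene MATN3 was called higher and the keratin KRT8 lower. The part of these markers in the values of SERPINA3 and CHI3L2 was not tested. Whether replicates were separate cultures is not in the labels, so the p-values cover the spread of these arrays alone, and that spread may be technical.

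CHI3L1, a close relative of CHI3L2, followed the same order of groups in SNB19. Its brightest probe set read 6.25 and 6.00 with siRNA1 and 4.29 and 4.49 with siRNA2, against 2.80 and 3.10 with scramble. As for CHI3L2, the 3 groups did not overlap and siRNA2 lay between the others. Both scramble values were below the lower quartile of their arrays, at -1.17 and -0.93 from it, so background bounds the level there and the size of a difference from scramble is uncertain. Measured from that quartile in place of scramble, siRNA1 was higher by 2.13 and siRNA2 by 0.40, values chosen after seeing the data and without a test. In SF539 it read 6.30 and 6.53 with siRNA1 and 7.24 and 12.04 with siRNA2, against 6.38 and 6.53 with scramble, so that 1 array stood far above the rest. In SNB19 the mean of both siRNAs differed from scramble by 2.31 ± 0.95 (limma adjusted p = 0.0951), with an error that takes in the gap between the SF539 siRNA2 arrays. Fitted on the SNB19 arrays alone, a setting chosen after seeing the data, the difference was called (limma adjusted p = 3.55e-05), and siRNA2 was lower than siRNA1 by a difference of -1.73 (limma adjusted p = 0.00121). In SF539 the mean differed by 1.57 (limma adjusted p = 0.349). That difference was 0.37 without siRNA2 replicate 2. It was 2.77 without siRNA2 replicate 1, where siRNA2 rests on the single array at 12.04 and the gap between its replicates leaves the error. A second probe set differed from scramble by 1.60 with siRNA1 and 0.05 with siRNA2 in SNB19, and the third stayed between 2.86 and 3.36 on all arrays.

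**Figure D3:**
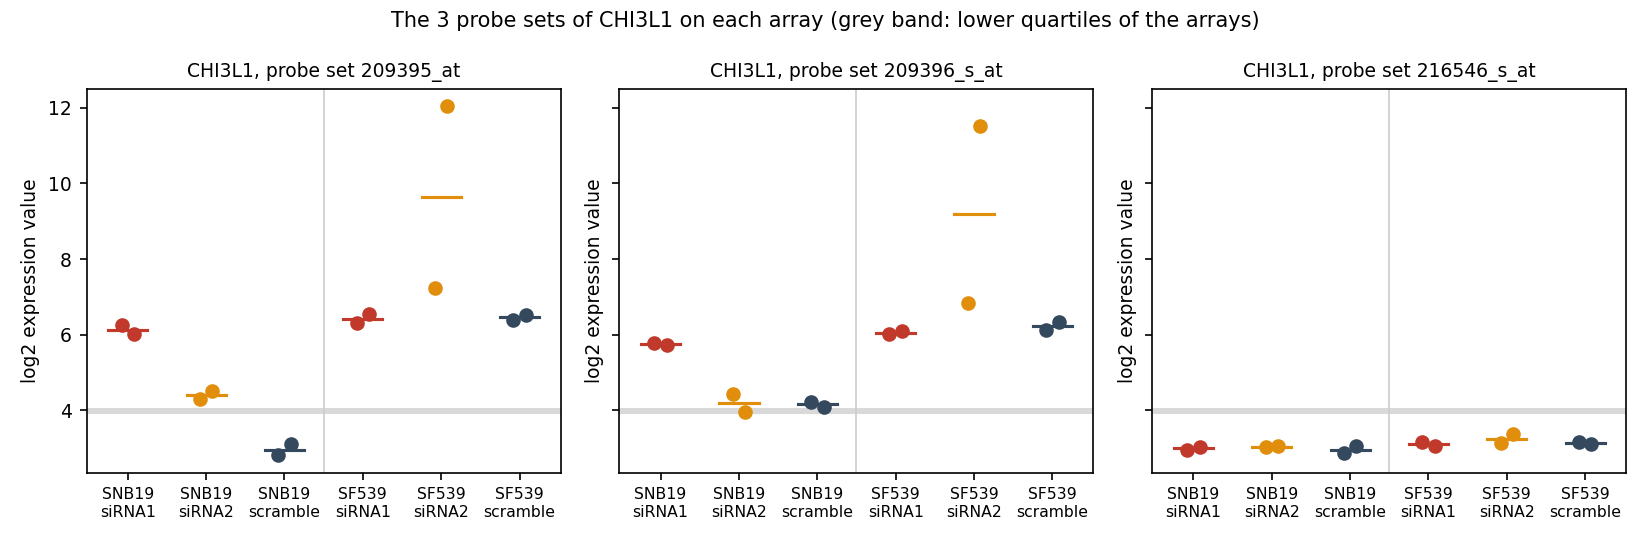
Log2 expression values of the 3 probe sets of CHI3L1 on each of the 12 arrays, by line and siRNA. Points are arrays, short lines are group means and the grey band spans the lower quartiles of the arrays. The first 2 panels show SF539 siRNA2 replicate 2 far above all other arrays, at 12.04 in the first, and siRNA1 above scramble in SNB19.

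Of the other chitinase family genes 2 were measured, CHIT1, an active chitinase of macrophages, and OVGP1, an oviduct glycoprotein. With CHI3L1 they made 3 genes. In SNB19 OVGP1 alone was called, with a difference of -0.42 (limma adjusted p = 0.0272). That call was lost without SNB19 scramble replicate 1 (limma adjusted p = 0.139) and without 3 other arrays, and under quantile normalization. In SF539, where 9.82% of all genes were called, 5.8% higher and 4.01% lower, none of the 3 was called.

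Among 24 measured serpins other than SERPINA3, 3 were called higher and 5 lower in SNB19. The called share was 33.3%, close to the 32.8% of all genes, with a median difference of -0.06 against -0.01 for all genes, a split that became 5 higher and 4 lower with each array centred on its median. SERPINA5, the protein C inhibitor, read 9.90 and 9.91 with siRNA1 and 9.81 and 9.66 with siRNA2, against 7.98 and 7.98 with scramble, a rise of 1.84 ± 0.13 (SE, limma adjusted p = 5.38e-06). SERPINA1, alpha-1-antitrypsin, the inhibitor of neutrophil elastase, read 6.55 and 6.35 with siRNA1 and 5.90 and 5.99 with siRNA2, against 4.84 and 4.66 with scramble, a rise of 1.45 ± 0.12 (limma adjusted p = 1.27e-05). Neither gene's siRNA arrays overlapped scramble. SERPINI1, neuroserpin, fell by 1.05 and SERPINE2, protease nexin-1, fell by 1.02. The count of 8 called serpins was 5 without SNB19 scramble replicate 2. In SF539 SERPINE2 alone was called, with a difference of -0.92 (limma adjusted p = 0.000792), and SERPINA5 and SERPINA1 differed by 0.07 and 0.27 without passing the test. SERPINA5 is the gene next to SERPINA3 in the serpin cluster of chromosome 14, while SERPINA4 and SERPINA6 of the same cluster differed by -0.18 and -0.09 in SNB19 and were not called.

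The proteases that SERPINA3 inhibits were represented by 4 genes. In SNB19 2 were called higher, CTSG, cathepsin G, by 0.40 and CMA1, mast cell chymase, by 0.24, so that 50% were higher, against 15.5% of all genes. Averaged over the 12 arrays CMA1 read 3.67, below the lower quartile of every array (3.93 to 4.02), so its difference lies within background. CTSG averaged 4.84, below the median of every array (5.94 to 6.14). Both calls were lost without SNB19 scramble replicate 1 (limma adjusted p = 0.317 for CTSG and 0.124 for CMA1) and without several other arrays. In SF539 none was called.

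Of the 6 measured ligands of the interleukin-6 family, 2 were called higher in SNB19, or 33.3% against 15.5% of all genes called higher and 32.8% called in either direction. IL11, a cytokine that signals through the shared receptor chain IL6ST, read 6.72 and 6.72 with siRNA1 and 9.38 and 9.17 with siRNA2, against 5.82 and 5.88 with scramble. Its groups did not overlap, and siRNA2 was the higher siRNA, the reverse of CHI3L2. The mean of both siRNAs was higher by 2.15 ± 0.31 (SE, limma adjusted p = 0.000559). siRNA2 alone was called, at 3.42 (limma adjusted p = 8.67e-05), and siRNA1 alone was not, at 0.87 (limma adjusted p = 0.11). A second, dimmer probe set differed by 0.75 for the mean. LIF, leukaemia inhibitory factor, was higher by 1.03 (limma adjusted p = 0.019), a call lost without SNB19 scramble replicate 1 (limma adjusted p = 0.0945), scramble replicate 2 (limma adjusted p = 0.101) or siRNA1 replicate 2 (limma adjusted p = 0.0518). Its difference was 1.75 with siRNA2 (limma adjusted p = 0.00265) and 0.30 with siRNA1 (limma adjusted p = 0.561), and the siRNAs differed from each other by 1.45 (limma adjusted p = 0.0309). IL6 itself differed by -0.43 and was not called (limma adjusted p = 0.0556). In SF539 no ligand was called, but 3 were called lower without siRNA2 replicate 2.

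Among 6 receptor chains of that family, IL6ST, the chain shared across the family, rose by 0.67 ± 0.07 in SNB19 (SE, limma adjusted p = 6.28e-05). LIFR was called lower, by -0.63 (limma adjusted p = 0.0185), but not without SNB19 scramble replicate 1 (limma adjusted p = 0.176). Of 9 transducers and inhibitors of the JAK-STAT3 route 2 rose and 3 fell, or 3 and 2 with each array centred on its median. The called share of these 9 was 55.6%, against 32.8% of all genes. The phosphatase PTPN11 rose by 1.10 and the kinase JAK1 by 0.62, while SOCS1, a feedback inhibitor, fell by 1.39 and the kinase JAK2 by 0.91. Dimmer probe sets of these genes gave smaller differences, of 0.13 to 0.95 for PTPN11, -0.51 to -0.03 for SOCS1 and -0.30 for JAK2, and those of IL6ST gave 0.08 to 0.51. STAT3 differed by 0.20 (limma adjusted p = 0.115) and its feedback target SOCS3 by -0.14 (limma adjusted p = 0.449), and neither was called. In SF539 no receptor was called, PIAS3, a STAT3 inhibitor, was higher by 0.47 and JAK2 lower by -0.48. Those calls were lost without SF539 scramble replicate 2 (limma adjusted p = 0.0833 for PIAS3 and 0.162 for JAK2).

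SERPINA3 belongs to the acute-phase genes, of which 19 others were measured. In SNB19 2 were called higher and 6 lower, 42.1% against 32.8% of all genes, with a median difference of -0.04 against -0.01 for all genes. Complement genes were among those that fell, with differences of -3.11 for CFB and -2.02 for C1R, and SERPINA1 rose as given above. A second, dim probe set of CFB differed by 0.01. SERPING1, the C1 inhibitor, was lower by -0.58 (limma adjusted p = 0.00654), but not without SNB19 scramble replicate 1 (limma adjusted p = 0.0568), where 3 of the 19 were called in place of 8. LCN2, lipocalin-2, another acute-phase marker of reactive astrocytes, differed by 0.29 and was not called (limma adjusted p = 0.183). In SF539 CFB alone was called, lower by -0.98 (limma adjusted p = 0.0118), and not without scramble replicate 1 (limma adjusted p = 0.0952).

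Of 15 NF-kB target genes none was called higher and 3, or 20%, lower in SNB19, against 17.4% of all genes. The neutrophil chemokine CXCL8 fell by 1.41 for the mean of both siRNAs, but the siRNAs differed by 1.96 (limma adjusted p = 0.000145), with -2.40 for siRNA1 and an uncalled -0.43 for siRNA2 (limma adjusted p = 0.0721). Its second probe set differed by -0.59. The NF-kB inhibitor TNFAIP3 fell by 0.53, while NFKBIE was lower by -0.31 and not called without SNB19 scramble replicate 1 (limma adjusted p = 0.17). In SF539 4, or 26.7%, were lower and none higher, against 4.01% of all genes called lower. CXCL8 fell by 1.55 and the chemokine CCL20 fell by 1.65, whereas the calls of IL1B, lower by -1.17, and CXCL2, lower by -1.08, were lost without SF539 scramble replicate 1 (limma adjusted p = 0.102 for IL1B and 0.237 for CXCL2). The 4 genes called in SF539 were 2 without that array and 7 without siRNA2 replicate 2. Some other list counts in SF539 were larger without siRNA2 replicate 1, with 5 serpins in place of 1, 5 JAK-STAT3 genes in place of 2 and 8 mesenchymal glioma genes in place of 3.

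**Figure D4:**
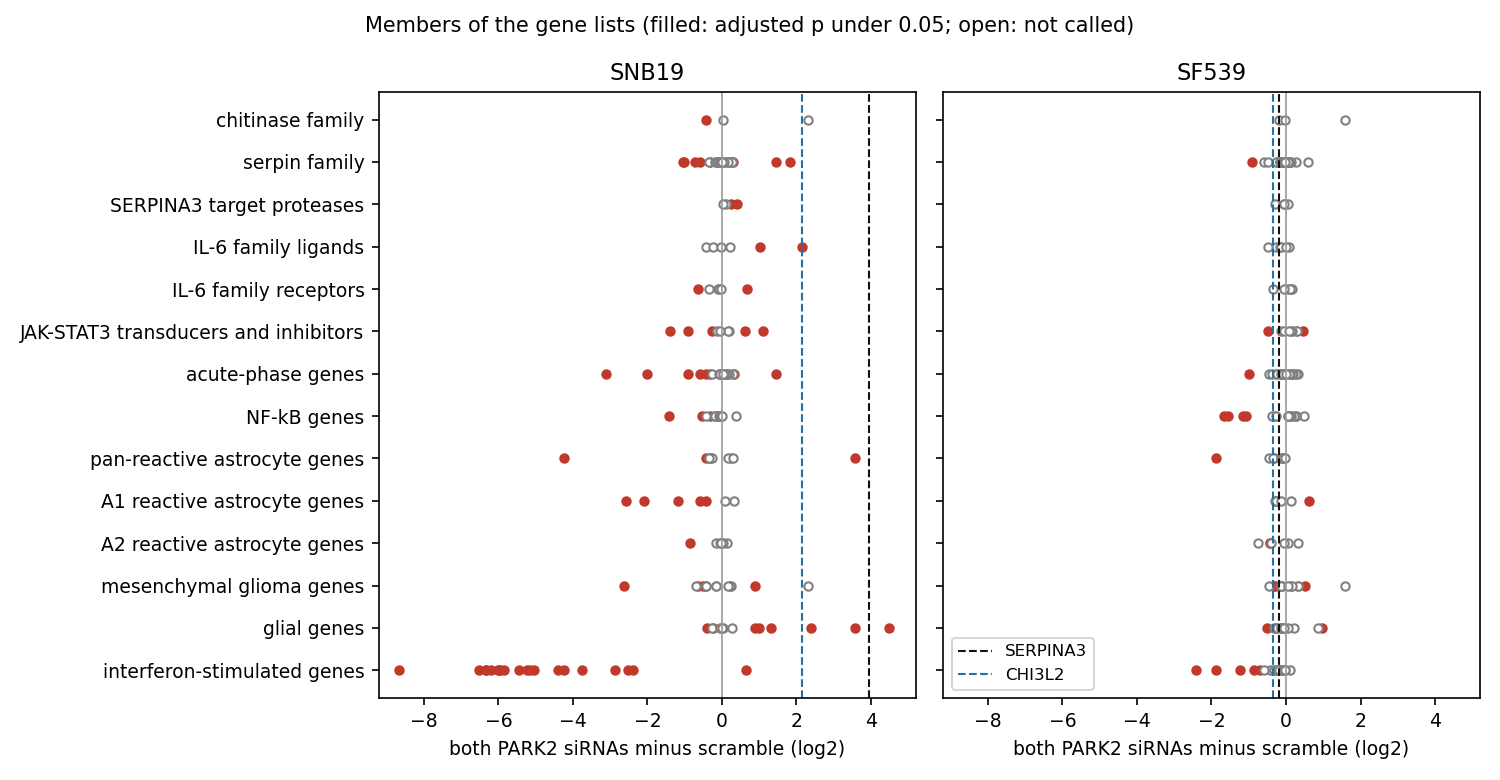
Difference between both PARK2 siRNAs and scramble, in log2 units, for each measured gene of 14 lists in SNB19 (left) and SF539 (right). Filled points passed an adjusted p of 0.05, open points did not, and dashed lines mark SERPINA3 and CHI3L2. In SNB19 the glial genes reach 4.48 and the interferon-stimulated genes -8.66, while most points in SF539 lie close to 0.

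The markers of reactive astrocytes did not move as one group in SNB19. Of 9 pan-reactive genes 1 was called higher and 3 lower, or 3 higher and 1 lower with each array centred on its median, and the called share was 44.4%, against 32.8% of all genes. The gene that rose was GFAP, the astrocyte filament, by 3.58 ± 0.16 (SE, limma adjusted p = 1.53e-07), although its second probe set differed by -0.07. CXCL10, a chemokine induced by interferon, fell by 4.23. TIMP1, a protease inhibitor, and CP, a copper carrier, were called lower for the mean of both siRNAs, with differences of -0.42 and -0.33. For CP that mean joined opposite changes, since it rose by 0.75 with siRNA1 (limma adjusted p = 0.00139) and fell by 1.41 with siRNA2 (limma adjusted p = 2.53e-05). The calls of TIMP1 and CP for the mean were lost without SNB19 scramble replicate 1 (limma adjusted p = 0.206 for TIMP1 and 0.237 for CP). Of 7 genes of the inflammatory A1 type 5 were called lower, among them HLA-E by -2.57, the immunoproteasome subunit PSMB8 by -2.09 and GBP2 by -1.18, and none higher, a called share of 71.4% against 17.4% of all genes called lower. Of 7 genes of the A2 type PTGS2 alone was called, lower by -0.85 and not without SNB19 scramble replicate 1 (limma adjusted p = 0.176). In SF539 CXCL10 was lower by -1.87 and CD44 by -0.31, GBP2 was higher by 0.62, and TM4SF1 and EMP1 of the A2 type were lower by -0.44 and -0.42. All 5 calls were lost without SF539 scramble replicate 2. Other probe sets of CD44 gave differences that included -1.08, -0.78, -0.75, -0.73, -0.55 and, in a dim one, -0.29. Those of TM4SF1 included -0.76, -0.68 and, in a dim one, 0.41. The siRNAs differed from each other at CXCL10, which was lower with siRNA1, by -2.94, and not called with siRNA2, at -0.80 (limma adjusted p = 0.194). They also differed at GBP2, which was higher with siRNA2, by 0.96, and not called with siRNA1, at 0.28 (limma adjusted p = 0.329).

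Glial genes rose more often than they fell in SNB19. Of 13 measured 6 were higher and 2 lower, 61.5% against 32.8% of all genes, with a median difference of 0.26 against -0.01 for all genes. This list, SCRG1 included, was chosen with earlier results of these data known, so its share is a description and no separate result. SCRG1, a secreted protein of glia and cartilage, read 9.44 and 9.61 with siRNA1 and 8.08 and 8.001 with siRNA2, against 4.39 and 4.22 with scramble, and was the only gene whose difference, 4.48 ± 0.15, exceeded that of SERPINA3. Its groups did not overlap, siRNA1 was the higher siRNA and scramble lay little above the lower quartile of the arrays, as for CHI3L2. SPARCL1, a matrix protein of astrocytes, rose by 2.40 and the gap junction gene GJA1 by 0.89. In SF539 GJA1 rose by 0.97 and SOX9 was lower by -0.52, and the SOX9 call did not hold without scramble replicate 1 (limma adjusted p = 0.102). Of 13 mesenchymal glioma genes, CHI3L1 among them, 1 was called higher and 4 lower in SNB19, or 4 higher and 3 lower with each array centred on its median. The called share of 38.5% stood near the 32.8% of all genes. CASP1 fell by 2.63, TNFRSF1A by 0.65 and TRADD by 0.51, and TNC, higher by 0.88, had a second probe set that differed by -0.97. This count of 5 was 11 without either array of SF539 siRNA2. In SF539 TGFBI rose by 0.51, and MET was lower by -0.29, a call lost without scramble replicate 1 (limma adjusted p = 0.182). MET and SOX9 were called with siRNA2 there, at -0.50 and -0.79, and not with siRNA1, at -0.09 (limma adjusted p = 0.669) and -0.25 (limma adjusted p = 0.313).

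Interferon-stimulated genes went the other way from SERPINA3 and CHI3L2 in SNB19. Of 20 measured 19 were called lower, against 17.4% of all genes, with a median difference of -5.34 against -0.01 for all genes. IFI27, BST2, OAS1 and IFIT3, antiviral effectors, fell by 8.66, 6.52, 6.34 and 6.02. The gene called higher was IRF7, by 0.64, a call lost without SNB19 scramble replicate 1 (limma adjusted p = 0.199). In SF539 5 were lower and none higher, 25% against 4.01% of all genes, with a median of -0.23 against -0.02 for all genes. CXCL11 fell by 2.41 and RSAD2 by 1.22 there, and 3 were called without scramble replicate 1 or replicate 2. Whether the lower interferon-stimulated genes and the higher SERPINA3 and CHI3L2 are linked was not tested.

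The genes whose pattern was most like that of each member were ranked by Pearson correlation over arrays, among genes with a range of at least 1 log2 unit. The arrays share their groups, so the correlations describe these arrays only. Over all 12 arrays and 3213 genes SERPINA3 was most like CEP68 (r = 0.99), followed by CYFIP1, USP46, MTSS1 and SCRG1, and CHI3L2 stood at place 471 with r = 0.84. Over the 6 SNB19 arrays and 868 genes it was most like OXCT1 and SERPINA5, followed by ADARB1, PGAP1 and ADAM9. All 5 of those from SNB19 differed little between siRNA2 and siRNA1, with differences between -0.18 and -0.02. Their choice by likeness to SERPINA3 on these arrays favoured that, so it is no separate result.

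CHI3L2 was most like LPGAT1 (r = 0.94 over 12 arrays), followed by CITED1, KDR, SLC15A2 and CBX6. Over the 6 SNB19 arrays it was most like CD83 (r = 0.997), followed by SHC2, CHI3L1 at r = 0.99, AKR1C3 and SLC26A4. CD83 read 7.996 and 7.999 with siRNA1 and 6.85 and 6.79 with siRNA2, against 6.34 and 6.33 with scramble. Each of these 5 was lower with siRNA2 than with siRNA1, by differences of -1.73 to -0.74. Their choice by likeness to CHI3L2 on these arrays favoured that order, so it is no separate result. The correlation of CHI3L2 with SERPINA3 over the same 6 arrays was 0.80.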

How the data were processed

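Biotin-labelled RNA of SNB19 and SF539 cells was measured on 12 arrays, 2 per group. The deposited log2 values lie between 2.01 and 14.1. Partek was the authors' tool, per the submitters' processing notes, and how it corrected and normalized the arrays is not given in the sources used here. Of 16376 probe sets 14038 had 1 gene, 792 several and 1546 none. Symbols of 14028 were matched to RefSeq, assembly GRCh38.p14. Each gene was read by its brightest probe set, giving 8545 genes. With limma 3.58.1 in R 4.3.3 a model of 6 groups was fitted to the 12 arrays (6 residual, 3.65 prior degrees of freedom). Tests were two-sided, and p-values were adjusted over all genes by Benjamini-Hochberg, with calls at 0.05. Errors of differences are standard errors. The number of arrays limits the precision, and the values carry no detection call.

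The members and gene lists were chosen with earlier results of these data known. The genes named are the members, CHI3L1 and SERPINA1, up to 4 called genes of smallest p per list and line, and the 5 genes most like each member. CHIT1, IL6, STAT3, SOCS3, LCN2 and IRF7, the markers of cell types, the serpins SERPINA4 and SERPINA6 and the SF539 values of SERPINA5 were chosen after their values were seen. The fit was tested on simulated data. Alternatives were array weights, a trended robust prior, a replicate block, median centring, quantile normalization, dropping the dimmest 40% of genes, averaging a gene's probe sets, testing each probe set, fitting 1 line alone and dropping each array in turn. The lone array then left in a group is assumed to vary as the other groups do. Plots used matplotlib 3.10.9.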

Additional observations from a re-analysis of the deposited data

Results flagged for a closer look

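The PARK2 siRNA arrays lay on opposite sides of the scramble mean in the lines for both genes. For SERPINA3 all 4 siRNA arrays lay above the scramble mean in SNB19, by 3.95 on average, and all 4 lay below it in SF539, where the average difference was -0.19 and did not pass the test, and the nearest array differed by only -0.0298. For CHI3L2 all 4 lay above the scramble mean in SNB19, by 2.16 on average, and all 4 below it in SF539, where the average was -0.349. The genes were chosen for their values in SNB19, so the difference between the lines was not tested.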

How the results depend on the processing

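The values of SERPINA3 and CHI3L2 in SNB19 kept their direction under every alternative that gave one. Leaving out the dimmest genes removed CHI3L2, so that setting gives it no value. Leaving out 1 array, the CHI3L2 differences in SNB19 ran from 2.073 to 2.251 for both siRNAs, 3.118 to 3.296 for siRNA1 and 1.027 to 1.206 for siRNA2, and the scramble difference between the lines from 0.2459 to 0.4242. With each array centred on its median these were 2.29, 3.321, 1.258 and 0.5005, and that of SERPINA3 between the lines was -1.06, against -1.052 under quantile normalization. Centring over genes only was run first and replaced by centring over all probe sets, the array's own median, after both were seen. It gave 2.265, 3.294, 1.235, 0.5079 and -1.052. The probe set centring moved the median of all genes in SNB19 to 0.118 and the share of calls that were higher to 68.3%, against 47.1% as deposited (64.1% over genes), and in SF539 to 46%, against 59.1% (38% over genes). It turned the pan-reactive astrocyte genes to 3 higher and 1 lower in SNB19 and called none of the A2 genes there. No member changed direction with it.

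In SF539 the SERPINA3 difference of siRNA2 and siRNA1 ran from -0.2419 to 0.1334 when 1 array was left out, turning sign without siRNA2 replicate 1. The CHI3L2 call for both siRNAs (-0.349) was lost with array weights (adjusted p = 0.0626) and on the SF539 arrays alone (adjusted p = 0.126), and its difference ran from -0.4125 to -0.2855 over left-out arrays. Its siRNA2 call (-0.5024) was lost with array weights (adjusted p = 0.0866) and on the SF539 arrays alone (adjusted p = 0.061). Its difference between the siRNAs ran from -0.3359 to -0.2777 and was called without siRNA2 replicate 1 (-0.3273). Genes called in SNB19 numbered 1741 to 3551 over left-out arrays and 4679 of all probe sets. In SF539 they numbered 371 to 1973, 1488 of all probe sets and 165 on the SF539 arrays alone. The cause was not tested where averaging the probe sets of TNC turned it to -0.04558, and over left-out arrays CHI3L1 with siRNA1 in SF539 ran from -0.1524 to 0.07702, with 0.03394 between, and SERPINA1 there from -0.08136 to 0.2862.

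Replicate numbers showed no strong pairing of the samples, as the deviations of same-numbered arrays correlated at -0.18 to 0.109. Whether samples were paired is not in the labels, and these correlations cannot settle it. With the number as a replicate block the differences were unchanged, CHI3L2 in SF539 stayed called (adjusted p = 0.032), and 2761 genes were called in SNB19 and 779 in SF539.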
